A study of Mus musculus with 6 samples.

Results

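The respiratory chain genes examined here encode the subunits of the 5 complexes that carry electrons to oxygen and make ATP in mitochondria. Members were chosen by name: the mitochondrial genes mt-Nd, mt-Co, mt-Cytb and mt-Atp, and the nuclear symbols that start with Nduf (series a, b, c, s and v), Uqcr, Cox4 to Cox8 or Atp5, together with Sdha to Sdhd, each with at least 1 protein-coding transcript. This gave 100 genes of the 52999 symbols listed, 13 on the mitochondrial genome and 87 in the nucleus, and the 2 groups are described apart. The nuclear group held 37 genes of complex I, 4 of complex II, 8 of complex III, 19 of complex IV, 17 of complex V and the complex IV-associated pair Ndufa4 and Ndufa4l2.

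RNA was taken from male and female C57BL/6 mice aged 6 to 8 weeks, 24 h after axotomy of the left sciatic nerve at mid-thigh, and came from the nerve stump on the proximal side of the cut. The study asked which transcripts differ between the sexes. There were 3 male and 3 female libraries, and each was made from the pooled nerves of 2 mice, so that p-values measure the spread between pools. All 6 libraries had the injury. Since sham libraries were not analysed here, the values describe injured nerves and measure no change on injury. The total estimated count was 69848769, 56486909 and 51936195 in male libraries 1, 2 and 3, and 49158283, 54434147 and 64802091 in female libraries 1, 2 and 3.

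Complex I (NADH dehydrogenase) and complex II (succinate dehydrogenase) pass electrons to coenzyme Q, complex III (cytochrome bc1) passes them to cytochrome c, and complex IV (cytochrome c oxidase) passes them to oxygen. Complexes I, III and IV pump protons as they do so, and complex V (ATP synthase) lets the protons back to make ATP. Complex II is encoded by the nucleus alone, whereas the others combine a few mitochondrially encoded core subunits with many nuclear ones, so that 2 genomes have to supply each of them. In a nerve the chain serves Schwann cells, fibroblasts, vessels and immune cells as well as axons, whose own nuclear transcripts are made in cell bodies outside the nerve.

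The tissue showed its labelled identity, since the 9 Schwann cell markers summed to between 52440 and 62190 CPM (counts per 1000000 counts of the TMM-normalised library size) in male and between 22460 and 29900 CPM in female libraries, and 5 of the 9 passed the test higher in males. Markers of other tissues were also counted, at levels that differed between libraries, and where these transcripts came from was not tested. The 12 tested skeletal muscle markers summed to 16.3, 12.3 and 732 CPM in male libraries 1, 2 and 3, against 404, 650 and 46.7 CPM in female libraries 1, 2 and 3, and 1 of them, Myh4, passed the test, higher in females (0 CPM in male library 3). The 8 white adipocyte markers summed to between 65.2 and 299 CPM in male and between 96.2 and 703 CPM in female libraries, and 0 of 8 passed. Of 8 central neuron markers, 7 passed higher in males, with sums between 20 and 42.2 CPM in male and between 5.84 and 11.1 CPM in female libraries. In bulk tissue, fewer cells of a type and less RNA per cell cannot be told apart, and the part of these tissues in the results below was not tested except where a value is given.

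No respiratory chain gene passed the test between the sexes. With edgeR's quasi-likelihood test and Benjamini-Hochberg adjustment (threshold an adjusted p of 0.1), 0 of the 13 mitochondrial and 0 of the 83 nuclear genes that could be tested were called, where 5.30% of all 18396 genes tested were called, 3.84% higher in males and 1.46% higher in females. At an unadjusted p under 0.05 the mitochondrial group held 1 gene, higher in males, and the nuclear group 4 higher in males and 2 higher in females, against 11.0% and 9.69% of all genes (20.7% in either direction). With DESeq2's Wald test 3 members passed (mt-Co2, Ndufa4l2 and Ndufs1), where 13.3% of all genes did. Without female library 3 edgeR called 5 members (mt-Co2, mt-Co3, mt-Nd6, Ndufa5 and Ndufs1), where 13.7% of all genes were called. The remaining 4 nuclear members were at or near 0: Cox7b2, Cox8c and Ndufb11b had 0 counts in every library and Cox5b-ps had 10 counts in all.

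The nuclear group was steady from library to library and the mitochondrial group was not. In TPM (a share per 1000000 transcripts, which accounts for transcript length), the nuclear genes summed to 20804, 23092 and 21072 in male libraries, against 21610, 21313 and 21186 in female libraries, a 1.11-fold range. The 13 mitochondrial genes summed to 142035, 112843 and 130572 TPM in male libraries, against 101571, 141123 and 163948 TPM in female libraries, a 1.61-fold range. The lowest and the highest mitochondrial sums were both female, libraries 1 and 3, and the male values lay between them. Per gene, the SD of log2 CPM within a sex had a median of 0.12 over the 83 nuclear genes and 0.46 over the 13 mitochondrial genes, and 0.22 over all genes tested. The mitochondrial to nuclear ratio of summed TPM was 6.83, 4.89 and 6.20 in male and 4.70, 6.62 and 7.74 in female libraries, and the sexes overlapped.

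**Figure D1:**
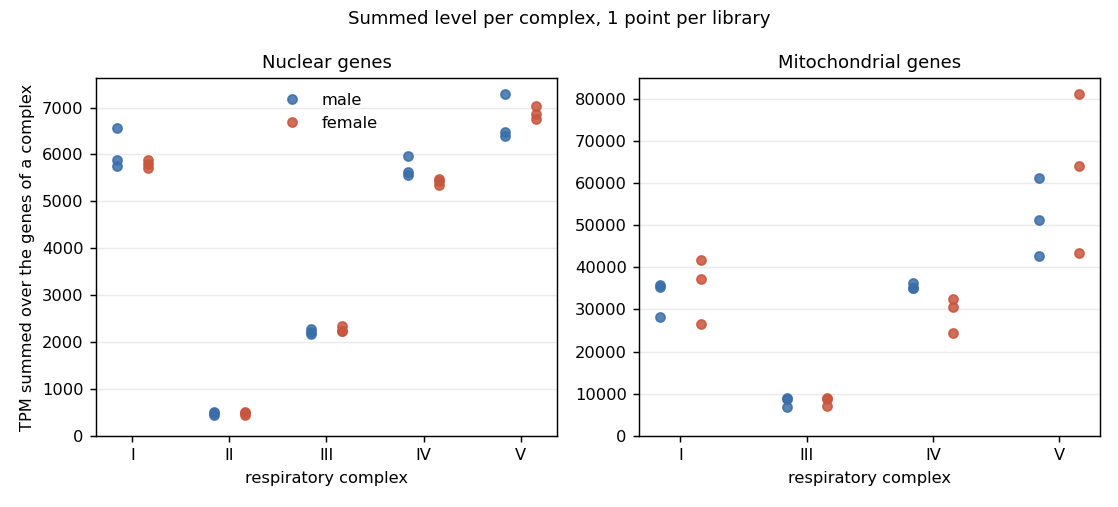
TPM summed over the nuclear genes (left) and the mitochondrial genes (right) of each respiratory complex, with 1 point per library, male to the left of female. The complex IV-associated pair Ndufa4 and Ndufa4l2 is not plotted. The nuclear sums of the complexes shown differed by at most 1.15-fold between libraries, whereas those of mitochondrial complex V differed by 1.9-fold.

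The mitochondrial genes lie end to end on a circular genome and are cut from long precursor RNAs. The RNA for mt-Atp8 and mt-Atp6, the 2 mitochondrial subunits of complex V, is shared by both, as is that for mt-Nd4l and mt-Nd4 of complex I, and the reading frames overlap. These stretches are shown because the bases of each overlap belong to both genes of the pair. They are GRCm39 sequence of the plus strand, at chrM:7912-7984 and chrM:10147-10193, and capitals mark the overlap of 43 bases (7927 to 7969) and of 7 bases (10167 to 10173).
mt-Atp8 and mt-Atp6: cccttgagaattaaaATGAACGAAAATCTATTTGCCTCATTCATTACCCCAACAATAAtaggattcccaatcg
mt-Nd4l and mt-Nd4: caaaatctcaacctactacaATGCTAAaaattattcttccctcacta

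Levels per length put mt-Atp8 far above its partner, with a mean over the 6 libraries of 46450 TPM, against 10840 TPM for mt-Atp6. The annotated mt-Atp8 transcript is 204 bases long, of which the files count 48 as effective, the positions at which a fragment of typical size can start. Counted per kilobase of full length, and with the pseudogene counts described below added, mt-Atp8 stood at between 0.966 and 1.61 times mt-Atp6. The same holds on a smaller scale for mt-Nd4l (297 bases, 109 effective), at 9739 TPM against 6385 TPM for mt-Nd4, and at between 0.825 and 1.23 times it per kilobase of full length. Without mt-Atp8 the mitochondrial sum was 92472, 77169 and 89464 TPM in male and 68252, 89700 and 96345 TPM in female libraries.

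Among the longer mitochondrial genes, the 3 catalytic core subunits of complex IV included the highest levels. As deposited, their means were 14620 TPM for mt-Co1, 12180 TPM for mt-Co2 and 5532 TPM for mt-Co3. The pseudogene counts described below change this order. Once they are added, the means are 18330 TPM for mt-Co2, 16910 TPM for mt-Co1, 15920 TPM for mt-Atp6 and 13270 TPM for mt-Co3. Cytochrome b, mt-Cytb, the mitochondrial subunit of complex III, averaged 8247 TPM. The complex I subunits averaged 7795 TPM for mt-Nd1, 4641 TPM for mt-Nd2, 3542 TPM for mt-Nd3 (5351 TPM with its copy added) and 1976 TPM for mt-Nd5. The lowest was mt-Nd6 at 73.9 TPM, a complex I subunit and the only mitochondrial member encoded on the minus strand (13552 to 14070). There its end overlaps that of mt-Nd5 on the other strand (11742 to 13565). The libraries were made with a stranded protocol, but whether the counting used strand is not given in the sources used here. Reads from this overlap may therefore have gone to either gene.

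Several mitochondrial genes have near-identical copies in the nuclear genome, and part of their counts had been assigned to these copies. A stretch of 4663 bases on chromosome 1 (GRCm39, chr1:24650616-24655278, minus strand) aligned with positions 6390 to 11042 of the mitochondrial genome, with 4651 identical bases, 2 mismatches and 1 gap base. The annotation names 7 pseudogenes in it, which match the end of mt-Co1, then mt-Co2, mt-Atp6, mt-Co3, mt-Nd3, mt-Nd4l and the start of mt-Nd4. The copy of mt-Co3, Gm28437, matched over 783 bases with 0 mismatches, and that of mt-Nd3, Gm28438, over 345 bases with 1, T3C (position 3 of mt-Nd3, counted from 1 at its first base, with the mitochondrial base first and the copy's base last). Windows of both pairs are shown 5' to 3' on the coding strand to make plain how little separates gene and copy. They cover chrM:9459-9501 and chr1:24652158-24652200 (minus strand) for mt-Nd3, and chrM:8959-9039 and chr1:24652620-24652700 (minus strand) for mt-Co3, and the capital marks the mismatch.
mt-Nd3: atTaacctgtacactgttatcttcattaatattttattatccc
Gm28438: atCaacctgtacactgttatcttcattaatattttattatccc
mt-Co3: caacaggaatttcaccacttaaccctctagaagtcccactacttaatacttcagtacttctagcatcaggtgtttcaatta
Gm28437: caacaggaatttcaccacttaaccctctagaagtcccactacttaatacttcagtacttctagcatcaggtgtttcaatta

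The share on the copy varied between libraries. Gm28437 held 51.0, 30.6 and 62.6% of the joint count with mt-Co3 in male libraries 1, 2 and 3, against 73.5, 72.4 and 61.3% in female libraries. Gm28438 held 39.9, 51.1 and 55.1% of the joint count with mt-Nd3 in male libraries, against 40.3, 24.2 and 4.4% in female libraries. For mt-Co3 male libraries 1 and 2 lay below every female library, and for mt-Nd3 male libraries 2 and 3 lay above every female library. Gm10925 held 27.9, 49.3 and 42.2% of the joint count with mt-Atp6 in male libraries, against 25.5, 24.1 and 23.6% in female libraries, which did not overlap. Gm28661 held 27, 22 and 36.7% of the joint count with mt-Co2 in male libraries, against 32, 38.2 and 44.1% in female libraries. Only part of mt-Co1 is copied in the chromosome 1 stretch. Its share on Gm29216 was between 1.9 and 8.9% in male and between 0.7 and 2.1% in female libraries. A copy on chromosome 2, Gm13340, aligned over 1545 bases at 97.6% identity and held 90 counts in all. Gm10222 and Gm28439, the copies of mt-Nd4l and mt-Nd4, had 0 counts in every library. Where gene and copy are identical, the origin of a read cannot be told apart from its sequence.

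**Figure D2:**
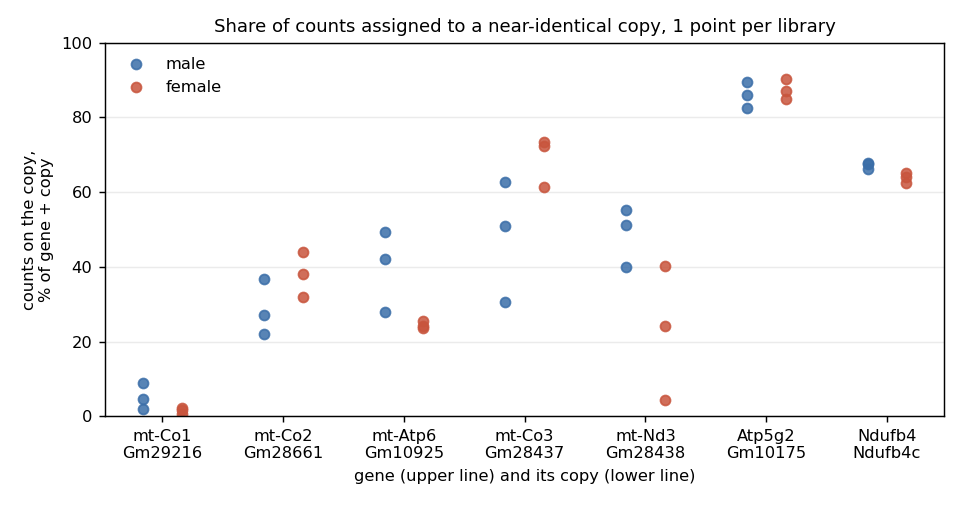
Percent of the joint count of a gene and its near-identical copy that was assigned to the copy, with 1 point per library, male to the left of female, for the 5 mitochondrial genes with counted copies on chromosome 1 and for Atp5g2 and Ndufb4. For mt-Nd3 the female libraries range from 4.4 to 40.3% and the male libraries from 39.9 to 55.1%.

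The fold changes of these genes moved when gene and copy were summed. As deposited, mt-Co3 had 2468, 3797 and 2085 CPM in male libraries, against 681, 1084 and 2338 CPM in female libraries. Its log2 fold change (male minus female) was 1.03 ± 0.45 (SE), the largest of the group, with an adjusted p of 0.248, and the groups overlapped through female library 3. With Gm28437 added, an alternative chosen after the data had been seen, the sum was 5037, 5475 and 5576 CPM in male libraries, against 2572, 3929 and 6037 CPM in female libraries, and the log2 fold change was 0.36 ± 0.31. For mt-Nd3 the deposited counts gave 352, 315 and 263 CPM in male libraries, against 207, 355 and 877 CPM in female libraries, a log2 fold change of -0.63 ± 0.46. With Gm28438 added it had 586, 644 and 585 CPM in male libraries, against 346, 467 and 917 CPM in female libraries, and the log2 fold change was 0.07 ± 0.32. The lowest and the highest library were then both female, as for mt-Co3.

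For mt-Co2 the deposited counts did not overlap between the sexes, the only mitochondrial member of which this held (1 of 13, 7.7%, where 25.5% of all genes did not overlap). It had 4068, 4774 and 3903 CPM in male libraries, against 1969, 2573 and 3715 CPM in female libraries, a log2 fold change of 0.63 ± 0.26 (adjusted p 0.229, and 0.0591 with DESeq2). With Gm28661 added it had 5575, 6119 and 6164 CPM in male libraries, against 2896, 4166 and 6643 CPM in female libraries, a log2 fold change of 0.38 ± 0.31, and the groups overlapped. For mt-Atp6 the log2 fold change was -0.04 ± 0.33 as deposited and 0.30 ± 0.32 with Gm10925 added. Over the 13 genes the log2 fold changes spread from -0.63 to 1.03 as deposited and from -0.21 (mt-Atp8) to 0.59 (mt-Nd6) with the copies added, and their SD was 0.41 and 0.20. The median was 0.24 in both cases, beside -0.03 for all genes tested.

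**Figure D3:**
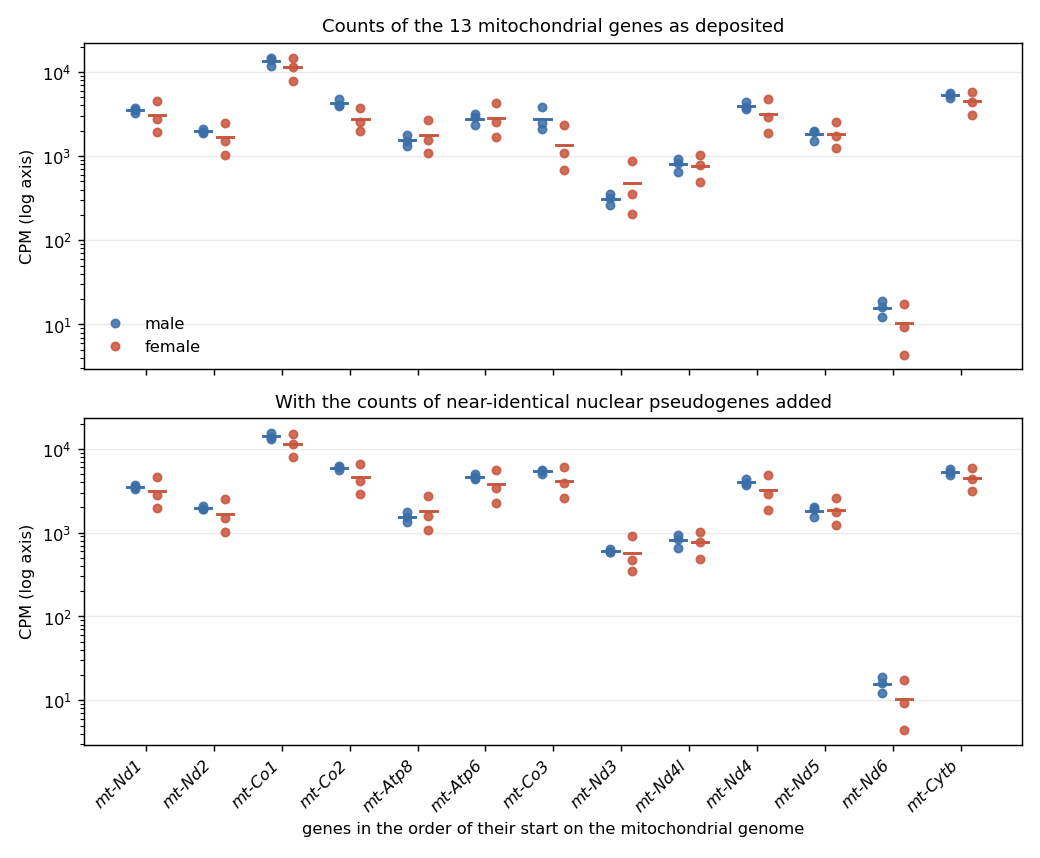
CPM of the 13 mitochondrial genes (log axis) as deposited (top) and with the counts of their near-identical nuclear copies added (bottom), male to the left of female, with points for libraries and bars for means. With the copies added, the 3 male points lie inside the female range for each gene except mt-Co1 and mt-Nd6, of which male library 3 is the highest at 15335 and 19.1 CPM.

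In CPM with the copies added, female library 1 was the lowest of the 6 for 13 of 13 genes. The highest was female library 3 for 11 and male library 3 for the other 2, mt-Co1 and mt-Nd6. In TPM with the copies added, male library 2 lay below female library 1 for mt-Nd2 (3933 against 4283), mt-Nd5 (1405 against 1836) and mt-Cytb (6923 against 7106). The highest in TPM was male library 3 also for mt-Co2 and mt-Nd4, and female library 2 for mt-Nd2 and mt-Cytb. Highest in CPM was mt-Co1. With its copies it had 13990, 12917 and 15335 CPM in male libraries, against 7965, 11413 and 15171 CPM in female libraries. Its log2 fold change was 0.29 ± 0.30. Cytochrome b, which has no counted copy, had 5283, 4843 and 5669 CPM in male libraries, against 3122, 4420 and 5859 CPM in female libraries, a log2 fold change of 0.24 ± 0.26. For both genes the difference was smaller than the spread between the female libraries. As a share of all counts the 13 genes and their copies came to 4.69, 4.72 and 5.21% in male libraries, against 2.80, 4.05 and 5.67% in female libraries.

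At this number of pools a mitochondrial difference between the sexes was neither shown nor closely bounded, since 0 of 13 of the 95% intervals lay within a 1.5-fold change. The direction rested on the female libraries: 9 of 13 log2 fold changes were positive in the comparison of all libraries, 13 of 13 without female library 3 (median 0.48) and 6 of 13 without female library 1 (median -0.02). Without female library 3 edgeR called mt-Co2 (adjusted p 0.0705), mt-Co3 (0.053) and mt-Nd6 (0.0923), 3 of 13, in a fit that called 13.7% of all genes. The effective lengths that Salmon estimated for these genes also differed between libraries, for mt-Co1 between 913 and 1321 bases, and with transcript length as an offset the median log2 fold change was 0.02, with 7 positive and 6 negative.

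The nuclear genes of complex I, whose products form the arm that oxidises NADH and the many accessory subunits around it, were close to equal in both sexes, with 18 positive and 18 negative log2 fold changes and a median of 0.00 over the 36 tested. Their levels as deposited spread from 37.4 to 314 TPM with a median of 157 TPM. The lowest was Ndufb4, which shared its counts with a copy, as described below. The 3 highest, Ndufa2, Ndufa1 and Ndufa7, all small accessory subunits, averaged 323 ± 37.5 and 304 ± 16.4, 295 ± 31.4 and 313 ± 38.2, and 298 ± 21.8 and 296 ± 9.3 TPM in male and female libraries (SD, n = 3 each). Of these 3, Ndufa1 and Ndufa7 differed by less than either SD, and Ndufa2 by less than the male but more than the female SD, with overlapping libraries.

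The catalytic subunit Ndufs1, which carries iron-sulphur clusters near the site where NADH is oxidised, had the smallest p of all members. It had 46.5, 45.6 and 47.3 TPM in male libraries, against 64.3, 64.8 and 49.8 TPM in female libraries. The groups did not overlap, and female library 3 lay nearest to the males. Its log2 fold change was -0.40 ± 0.11, 1.32-fold higher in females, with an adjusted p of 0.106, just short of the threshold. It passed with DESeq2 (0.037) and in edgeR without female library 3 (0.0471), and ranged from -0.48 to -0.33 over the libraries left out in turn. Ndufs1 and the other genes named here because their groups did not overlap were chosen after their values had been seen, unless they are among the highest of a complex or belong to an isoform family.

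Other complex I genes whose groups did not overlap pointed both ways. Ndufa9, an accessory subunit needed for assembly, had 74.0, 74.0 and 77.5 TPM in male libraries, against 98.4, 89.2 and 82.6 TPM in female libraries (log2 fold change -0.22 ± 0.09, adjusted p 0.223). Ndufa13, an accessory subunit also known for a role in cell death, had 187, 209 and 204 TPM in male libraries, against 146, 146 and 147 TPM in female libraries (0.27 ± 0.09, adjusted p 0.171). Ndufa5 had 203, 229 and 219 TPM in male libraries, against 180, 171 and 193 TPM in female libraries (0.28 ± 0.10, adjusted p 0.168). Ndufa3 was the fifth of them in CPM, at 0.19 ± 0.11, but in TPM its groups overlapped. None of these passed, and over all complexes 12 of 83 nuclear genes (14.5%) did not overlap in CPM, 6 higher in males and 6 higher in females, where 13.9% and 11.6% of all genes did so.

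The 4 subunits of complex II, the enzyme shared with the citrate cycle, stood at like levels. Sdha, the flavoprotein that oxidises succinate, averaged 125 ± 3.72 and 127 ± 15 TPM in male and female libraries, and Sdhb, the iron-sulphur subunit, 110 ± 15.4 and 113 ± 6.99 TPM. The membrane anchors Sdhc and Sdhd averaged 121 ± 9.46 and 108 ± 11.0 TPM, and 119 ± 7.15 and 126 ± 3.71 TPM (SD, n = 3 each). Their log2 fold changes lay between -0.14 and 0.04, and the means of the 4 genes over all libraries, from 112 to 126 TPM, spread less than those of any other complex.

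In complex III the small subunits Uqcrh, Uqcr10 and Uqcr11 had the highest levels, with means of 514, 397 and 378 TPM. Uqcr11 had 390, 339 and 349 TPM in male libraries, against 394, 380 and 417 TPM in female libraries, a log2 fold change of -0.24 ± 0.11 (adjusted p 0.27). The core protein Uqcrc2 did not overlap in CPM, with 112, 114 and 123 CPM in male libraries, against 137, 130 and 123 CPM in female libraries (-0.16 ± 0.10), but female library 3 exceeded male library 3 by less than 0.1 CPM, and in TPM the groups overlapped. The 8 genes had 4 positive and 4 negative log2 fold changes.

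Complex V, with 17 nuclear genes, had 6 positive and 11 negative log2 fold changes, and 3 of the 17 did not overlap in CPM, higher in females, where 11.6% of all genes did so. These 3 belong to the catalytic head, whose other genes Atp5d and Atp5e overlapped, at -0.05 ± 0.11 and 0.02 ± 0.13. Atp5a1, the alpha subunit, had 264, 276 and 284 TPM in male libraries, against 352, 328 and 292 TPM in female libraries (log2 fold change -0.25 ± 0.11, adjusted p 0.264). Atp5b, the beta subunit that holds the catalytic sites, had 666, 649 and 694 CPM in male libraries, against 864, 739 and 759 CPM in female libraries (-0.23 ± 0.13, adjusted p 0.341). In TPM the groups of Atp5b overlapped, with 638, 758 and 671 TPM in male and 890, 731 and 619 TPM in female libraries. Atp5c1, the gamma subunit that turns in the head, was the third whose CPM did not overlap (-0.13 ± 0.10). Its nearest libraries were almost equal, male library 2 at 152.99 and female library 2 at 153.04 CPM. In TPM its groups overlapped, with 232.3 in male library 3 and 227.2 in female library 3. The small subunits Atp5e and Atp5l averaged 761 ± 106 and 731 ± 24.5 TPM, and 620 ± 34.7 and 710 ± 34.7 TPM, in male and female libraries (SD, n = 3 each). For Atp5l the groups did not overlap in TPM, higher in females, but they overlapped in CPM (log2 fold change -0.05 ± 0.12, adjusted p 0.852). Length moved with the direction of the log2 fold change: of 20 nuclear members with an effective length over 800 bases, 13 (65.0%) were negative, with a median of -0.08, where 54.2% of all genes of that length were. Of 34 under 400 bases 13 (38.2%) were negative, with a median of 0.02, where 47.6% of all such genes were. With transcript length as an offset 55 nuclear members were positive and 28 negative, with a median of 0.05. The part of length in these differences was not tested beyond that.

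Of the 83 nuclear genes, 75 had a 95% interval of the fold change that lay within 1.5-fold in either direction. The exceptions were Ndufs1, whose interval ran from -0.65 to -0.15 on the log2 scale, and Ndufa4l2, Atp5g2, Cox4i2, Cox6a2, Cox6b2, Cox7a1 and Cox8b. The median log2 fold change of the 83 was -0.01, beside -0.03 for all genes tested, with 40 positive and 43 negative. Among members on the X chromosome, Ndufa1, Ndufb11 and Cox7b had log2 fold changes of -0.06 ± 0.11, -0.02 ± 0.08 and -0.08 ± 0.11.

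**Figure D4:**
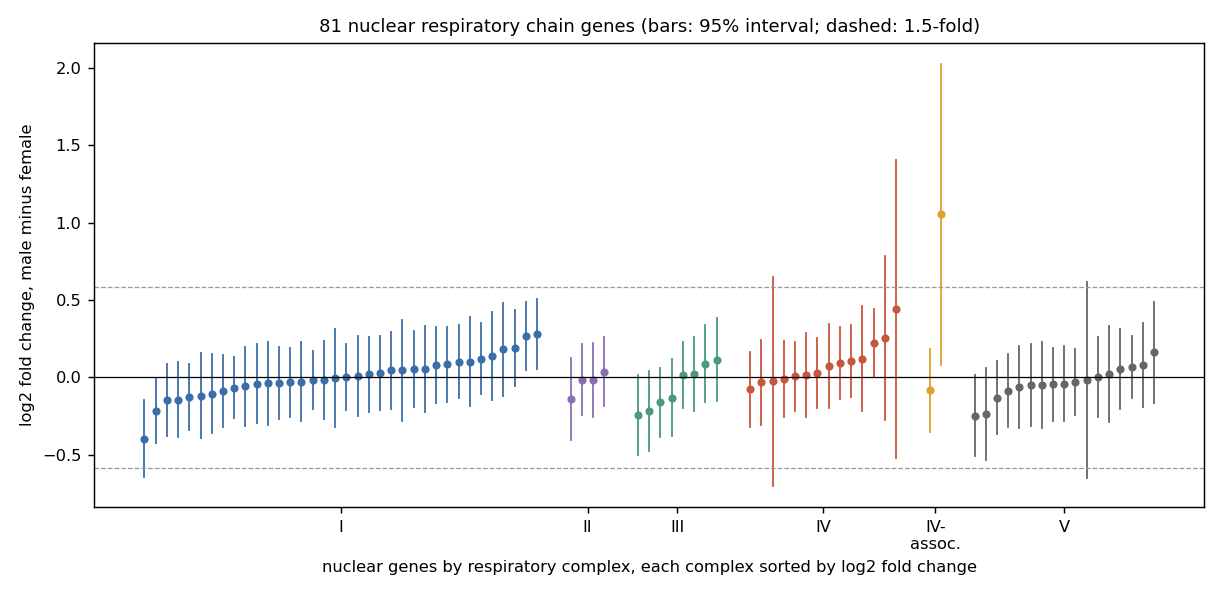
Log2 fold change (male minus female, edgeR) of the nuclear respiratory chain genes, grouped by complex and sorted within it, with bars for the 95% interval. Most intervals lie between the dashed lines at 1.5-fold. The highest point is Ndufa4l2 at 1.05, the lowest is Ndufs1 at -0.40, and Cox6a2 and Cox8b (-0.23 and -0.45) are left out because their intervals span more than the axis.

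Complex IV contains families of isoforms, which replace each other at the same place in the enzyme, and the isoforms found in most tissues held nearly the whole level here. Cox6c, Cox8a and Cox4i1 were the highest, at 904, 718 and 691 TPM. Cox8a had 743, 810 and 782 TPM in male libraries, against 623, 635 and 716 TPM in female libraries. Its groups did not overlap in TPM or CPM (log2 fold change 0.11 ± 0.10, adjusted p 0.586). In CPM, male library 1 at 143.01 barely exceeded female library 3 at 142.89. Cox4i2, the isoform known from lung and induced by low oxygen, was between 0.185 and 0.27% of its family's TPM, and Cox6b2, known from testis, between 1.42 and 2.75%. The testis isoforms Cox7b2 and Cox8c had 0 counts in every library.

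The isoforms of heart and skeletal muscle differed more between libraries of the same sex than between the sexes. Cox6a2 had 1, 11 and 513 counts in male libraries 1, 2 and 3, against 73, 574 and 18 counts in female libraries, and was 0.00708, 0.0881 and 4.67% of its family's TPM in male libraries, against 0.781, 5.56 and 0.12% in female libraries. Cox8b had 3, 9 and 201 counts in male libraries, against 53, 249 and 9 counts in female libraries, or 0.0512, 0.16 and 4.01% of its family in male and 1.45, 6.25 and 0.159% in female libraries. Cox7a1 had 20.8, 15.4 and 37.0 TPM in male libraries, against 16.1, 29.1 and 10.2 TPM in female libraries, where the widespread Cox7a2 had 385, 391 and 360 TPM in male and 367, 373 and 379 TPM in female libraries. Male library 3 and female library 2 were the highest for each of the 3 isoforms, and these 2 libraries also had the highest sums of the skeletal muscle markers, 732 and 650 CPM. The SD of log2 CPM within a sex was 3.30 for Cox6a2, 2.66 for Cox8b and 0.64 for Cox7a1. Cox8b lies on chromosome 7 (GRCm39, 140477069 to 140480359, minus strand) where it overlaps the end of Psmd13 on the plus strand, and without knowledge of the strand setting reads of the overlap may belong to either gene.

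**Figure D5:**
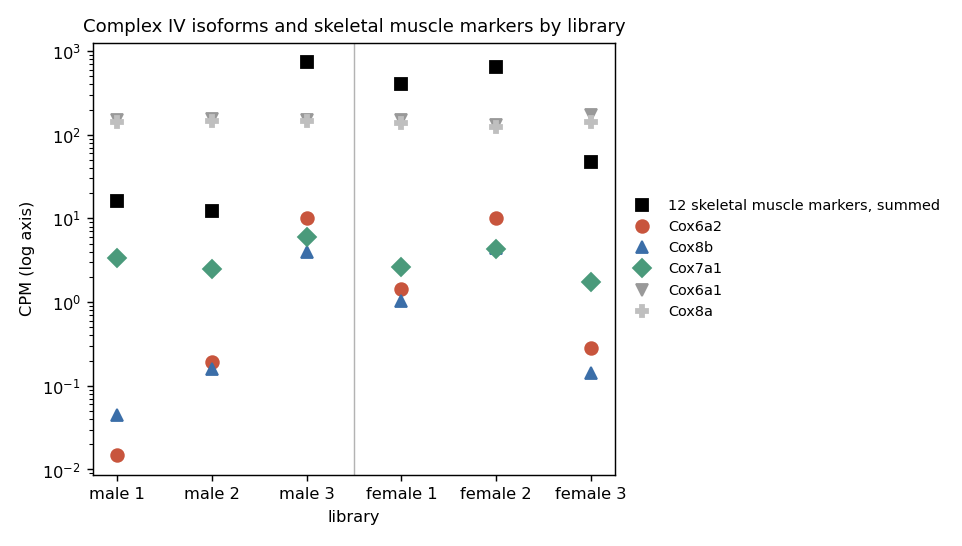
CPM (log axis) of the muscle isoforms Cox6a2, Cox8b and Cox7a1, of the widespread isoforms Cox6a1 and Cox8a and of the summed skeletal muscle markers in each library, male to the left of female. Cox6a2 ranges from 0.015 to 10.2 CPM and is highest in male library 3 and female library 2, as are the markers, whereas Cox6a1 stays between 132 and 171 CPM.

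The promoters of Cox8a, Cox8b and Cox6a1 are shown because the first and the last belong to isoforms found in most tissues and the middle one to an isoform of muscle that varied between libraries of the same sex. Each is 300 bases from RefSeq (table build GRCm38.p6), from 250 bases before the gene's start to 50 after, and each matched GRCm39 exactly, at chr19:7194932-7195231, chr7:140480310-140480609 and chr5:115486968-115487267, all on the minus strand. Capitals mark matches, on either strand and with no overlap between motifs, of GCGCATGCG (a form of the NRF1 site), CCGGAAG (a form of the ETS site, bound by GABP), AAGATGGC (a form of the YY1 site) and CAGCTG (a form of the E-box).
Cox8a: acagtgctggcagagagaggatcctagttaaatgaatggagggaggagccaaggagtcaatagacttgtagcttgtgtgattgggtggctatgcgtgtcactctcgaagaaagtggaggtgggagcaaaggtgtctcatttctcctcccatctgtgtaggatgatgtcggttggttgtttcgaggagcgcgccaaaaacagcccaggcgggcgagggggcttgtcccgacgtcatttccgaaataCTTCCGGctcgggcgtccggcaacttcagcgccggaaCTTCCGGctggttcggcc
Cox8b: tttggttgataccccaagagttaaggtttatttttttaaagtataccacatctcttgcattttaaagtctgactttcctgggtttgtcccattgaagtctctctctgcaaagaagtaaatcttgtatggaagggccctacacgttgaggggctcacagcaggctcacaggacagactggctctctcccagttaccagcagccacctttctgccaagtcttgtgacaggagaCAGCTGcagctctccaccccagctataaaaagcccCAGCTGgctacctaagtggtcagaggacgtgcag
Cox6a1: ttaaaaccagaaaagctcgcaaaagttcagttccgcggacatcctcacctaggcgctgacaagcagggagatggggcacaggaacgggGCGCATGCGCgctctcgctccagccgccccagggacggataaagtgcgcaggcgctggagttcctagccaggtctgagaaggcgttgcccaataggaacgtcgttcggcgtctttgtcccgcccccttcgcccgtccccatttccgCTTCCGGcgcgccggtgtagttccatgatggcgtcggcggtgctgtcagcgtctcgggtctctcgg

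Cox8a has the ETS letters at 2 places, Cox6a1 the NRF1 and the ETS letters at 1 place each, and Cox8b the E-box letters at 2 places. Of the 100 members 69 were in the promoter table. The NRF1 letters were in 8 of them (11.6%), against 1.81% of all 27025 promoters, the ETS letters in 16 (23.2%), against 9.12%, and the YY1 letters in 9 (13%), against 2.88%. The E-box letters were in 6 (8.7%), against 16.1%. A match of letters is a description and does not show binding.

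Ndufa4l2, an induced counterpart of the complex IV-associated Ndufa4 and known as a target of the low-oxygen response, had the largest fold change of the nuclear members. It had 24.6, 10.03 and 7.70 TPM in male libraries, against 7.50, 6.44 and 5.97 TPM in female libraries. The groups did not overlap, but male library 1 alone was far above the rest. The log2 fold change was 1.05 ± 0.42 (adjusted p 0.212, and 0.0711 with DESeq2), and 0.35 without male library 1. Ndufa4 itself had 417, 473 and 432 TPM in male libraries, against 588, 532 and 445 TPM in female libraries (-0.08 ± 0.12). Ndufa4l2 overlaps Shmt2 on the other strand, to which the same limit applies as for Cox8b. The limit also touches other members named here that match a gene on the opposite strand over part of their length. Examples are Ndufb11 with Rbm10 (65.6% of its main transcript), Ndufa3 with Tfpt (64.1%), Atp5l with Mob4 (81.2%) and Ndufa13 with Tssk6 (54.3%).

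Cox7a2l, a relative of the Cox7a subunits, had 113, 114 and 125 CPM in male libraries, against 99.7, 96.0 and 106 CPM in female libraries, without overlap (log2 fold change 0.22 ± 0.10, adjusted p 0.239). As deposited, the 3 genes for the identical c subunit of ATP synthase kept their order in each library. Atp5g3 held between 60.7 and 64.2%, Atp5g1 between 30.3 and 33.1% and Atp5g2 between 4.51 and 7.58% of their summed TPM. The Atp5g2 count, its share and its place in that order are uncertain. Its copy Gm10175, identical over 441 bases, held between 82.6 and 90.4% of the joint count. Summed with Gm10175, Atp5g2 had 113, 130 and 105 CPM in male libraries, against 132, 121 and 140 CPM in female libraries. It then lay above Atp5g1 in each library, which had 99.8, 117 and 102 CPM in male and 115, 98.9 and 118 CPM in female libraries. Ndufb4 likewise shared its counts with Ndufb4c, which held between 66.1 and 67.7% in male and between 62.4 and 65.1% in female libraries. With the copies added, the log2 fold changes were -0.18 ± 0.12 for Atp5g2 and 0.02 ± 0.09 for Ndufb4, against -0.02 ± 0.27 and -0.12 ± 0.12 as deposited.

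Genes that work with the chain but fall outside the naming rule were described from lists chosen with earlier results of these data known. Of 9 further chain genes tested, 2 passed higher in males and 0 in females, where 3.84% and 1.46% of all genes did so. Higd2a, which helps to assemble complex IV, had 76.3, 76.7 and 79.1 CPM in male libraries, against 52.3, 51.9 and 59.2 CPM in female libraries (log2 fold change 0.51 ± 0.09, adjusted p 0.0472). Ucp3, a carrier of the inner membrane related to the uncoupling protein, had 7.86, 8.67 and 11.1 CPM in male libraries, against 3.61, 5.76 and 4.93 CPM in female libraries (0.95 ± 0.22, adjusted p 0.0806). Cycs, the cytochrome c between complexes III and IV, differed by -0.11 ± 0.17, and Ucp2, the highest of the list in TPM, by -0.03 ± 0.13. Cycs was chosen after its values had been seen.

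Of 16 carriers, porins and cristae genes, 1 passed, where 5.30% of all genes did. This was Slc25a5, which exchanges ADP and ATP across the inner membrane. It had 220, 225 and 209 CPM in male libraries, against 379, 279 and 300 CPM in female libraries (-0.55 ± 0.14, adjusted p 0.093). Slc25a3, the phosphate carrier, differed by -0.17 ± 0.11. Of 16 regulators, 1 passed, beside the same 5.30% of all genes. This was Gabpa, the DNA-binding part of the factor GABP. It had 43.5, 35 and 41.7 CPM in male libraries, against 55.6, 58.0 and 52.0 CPM in female libraries (-0.46 ± 0.11, adjusted p 0.0818). Gabpa starts within Atp5j on the other strand of chromosome 16, and Atp5j itself did not pass (0.07 ± 0.09). Hif1a, the factor of the low-oxygen response, missed the threshold at -0.59 ± 0.16 (adjusted p 0.103), and Esrra, a nuclear receptor that acts on mitochondrial genes, differed by -0.02 ± 0.10. In the citrate cycle 0 of 16 genes passed in either direction, 16 of 16 log2 fold changes were negative, where 53.3% of all genes were, and the median was -0.14. Cs, which makes citrate, and Mdh2, which regenerates oxaloacetate, differed by -0.16 ± 0.10 and -0.12 ± 0.13.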

How the data were processed

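RNA-seq of 6 libraries (3 male, 3 female pools) was analysed. The submitters' processing notes name Trimmomatic 0.39, Salmon 1.5.2 and MultiQC 1.9, and the study's methods give a GENCODE annotation on GRCm39. The authors deposited Salmon's estimated counts per transcript, which are raw and can be fractional, with TPM and the effective length of each transcript. Deposited TPM is corrected for effective length and sums to the same total in each library. Salmon splits reads that match several transcripts by a model, so close copies can exchange counts. Total counts per library stand with the results and the number of pools limits the precision.

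Estimated counts and TPM were summed per symbol, and counts were rounded. In R 4.3.3, genes passing filterByExpr were normalised by TMM and tested in edgeR 4.0.16 (quasi-likelihood F test, sex as the only term, Benjamini-Hochberg over all genes tested). Each SE was derived from the log2 fold change and its F value. The code was tested on simulated data. Copies were searched with blastn 2.17.0 in GENCODE M39 transcripts (at least 95% identity over 100 bases and 50% of either transcript), which also gave coordinates. Alternatives were other scalings, DESeq2 1.42.0, limma-voom (limma 3.58.1), no filter, a length offset, a replicate block, a skeletal muscle score as covariate, each library left out and, added after the data were seen, copies added to members.

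Genes named were all 13 mitochondrial genes, isoforms, the 3 highest of each complex by TPM, and those past the threshold or among the highest in other lists. Members and lists were chosen with earlier results of these data known. No library was a copy of another.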

Additional observations from a re-analysis of the deposited data

How the results depend on the processing

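The mitochondrial and nuclear members called stayed at 0 in each direction under every alternative except 2. With DESeq2 the calls were 1 nuclear gene higher in males, 1 nuclear gene higher in females and 1 mitochondrial gene higher in males. Over the libraries left out in turn the range was 0 to 1 for nuclear genes higher in males, 0 to 1 for nuclear genes higher in females and 0 to 3 for mitochondrial genes higher in males, and the calls came without female library 3. Over all genes, 975 were called, against 2440 with DESeq2 and 1614 with no filter, and between 1 (without female library 1) and 2609 (without female library 3) with a library left out. The deviations of same-numbered libraries from their sex means correlated at -0.04, -0.30 and -0.30. These 3 values cannot tell whether replicate numbers reflect shared processing, and the main test did not pair the libraries. With the replicate number as a block 56 genes and 0 members were called. Scaling by library size alone moved the median of all genes by -0.05 and left 27 nuclear members positive and 56 negative, against 40 and 43. With a skeletal muscle score as covariate 28 were positive and 55 negative, with a median of -0.07. The causes were not tested. Depth limits Cox6a2 and Cox8b, with 1 and 3 counts in male library 1, and Cox4i2.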

Other observations

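Genes that build and serve the chain had 0 calls in 5 further lists, where 5.30% of all genes were called. Of 15 assembly factors of complex I and 34 of complexes II to V, 0 passed in either direction, with medians of 0.04 and 0.06 on the log2 scale. The highest in TPM differed by 0.08 ± 0.13 for Ndufaf8 and 0.04 ± 0.14 for Ndufaf2 (complex I), 0.14 ± 0.11 for Cox17, which carries copper to complex IV, and -0.08 ± 0.12 for Uqcc2 (complex III). Surf1, an assembly factor of complex IV, had 43.0, 42.5 and 46.3 CPM in male libraries, against 38.4, 36.5 and 36.9 CPM in female libraries (0.24 ± 0.09, adjusted p 0.186). Acad9, which helps to assemble complex I, had 36.8, 36.8 and 36.7 CPM in male libraries, against 47.4, 44.6 and 42.6 CPM in female libraries (-0.29 ± 0.09, adjusted p 0.132). Of 78 mitochondrial ribosomal protein genes, 0 passed, with 29 positive and 49 negative log2 fold changes and a median of -0.03, and the highest in TPM, Mrpl52 and Mrpl33, differed by -0.22 ± 0.15 and -0.08 ± 0.14. Of 13 coenzyme Q synthesis genes, 0 passed, with Coq10b and Coq2 at 0.02 ± 0.17 and 0.05 ± 0.11. Coq8a had 9.47, 7.75 and 28.1 CPM in male libraries, against 7.07, 15.4 and 5.33 CPM in female libraries, highest in the 2 libraries with the most muscle marker counts.

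Of 31 genes that copy, transcribe or process mitochondrial DNA and its RNA, 0 passed, with 8 positive and 23 negative log2 fold changes. Hsd17b10, part of the enzyme that trims mitochondrial transfer RNA, and Slirp, the partner of Lrpprc, differed by 0.10 ± 0.09 and 0.04 ± 0.11. Lrpprc, which stabilises mitochondrial messenger RNA, had 31, 36.1 and 33.6 CPM in male libraries, against 49.1, 47.4 and 39.8 CPM in female libraries (-0.44 ± 0.12, adjusted p 0.103). Surf1, Acad9, Coq8a and Lrpprc were chosen after their values had been seen. The mitochondrial ribosomal RNAs, which poly-A selection should reduce, were also lowest in female library 1 and highest, for mt-Rnr2, in female library 3: mt-Rnr2 was 0.19, 0.21 and 0.208% of all counts in male libraries, against 0.1, 0.136 and 0.224% in female libraries.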
